A study of Mus musculus with 2 samples.

Results

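Tumor macrophages that carried complement C1q transcripts were described in single-cell RNA sequencing of mouse pancreatic tumors. Cells were chosen by measured values: 1000 or more UMIs (unique molecular identifiers, each counting 1 captured transcript), no fewer than 200 genes and no more than 20% of UMIs from mitochondrial genes, with C1qa, C1qb and C1qc together at 0.1% of UMIs or more. Cells were also required to hold at most 1 UMI of Cd3e, Cd3g and Cd79a, keratins Krt8, Krt18 and Krt19 under 0.1%, and S100a8 plus S100a9 under 5%, and to meet 1 further threshold that is described with the processing. The selection kept 219 of 14022 barcodes, of which 169 of 6904 were in the PBS library and 50 of 7118 in the cmExoaCD11b library. They are called C1q cells here, and they are not all the cells with C1q in these libraries.

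Both libraries came from orthotopic pancreatic tumors in male C57BL/6J mice of 5 to 6 weeks, grown from K210 cells, a line made from tumors of mice in which the Pdx1 promoter drives Cre in the pancreas (Pdx1-Cre) and acts on engineered alleles, among them Trp53 fl/fl. One group of 3 mice received PBS and the other 3 received cmExoaCD11b, exosomes of mouse embryonic fibroblasts that carry IL-12 mRNA, the STING agonist 2′3′-cGAMP (5 µg per mouse) and an antibody to CD11b, by intraperitoneal injection from day 7. The tumors were taken 48 h after treatment, and the cells of the 3 mice in a group were pooled into 1 library. With 1 library per treatment there is no replicate spread and no test of the treatment. Intervals given below are exact 95% intervals for counting error only, and a gene is called past 2-fold when its ratio of CPM (UMI counts scaled to the same total in every population), with 1 UMI added to each sum, was at least 2 or at most 0.5 and both sums together held at least 50 UMIs.

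C1q is the recognition unit of the classical complement pathway, and in tissues it is made largely by macrophages. Tumor macrophages are known to span several programmes, among them antigen presentation on MHC class II and a hypoxic, matrix-degrading programme. Cytosolic 2′3′-cGAMP binds STING, which leads to type I interferon production, and interferon in turn raises a large set of antiviral genes through a complex that contains STAT2 and IRF9.

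The label was checked against Adgre1 (ENSMUSG00000004730, the F4/80 antigen), Mrc1 (ENSMUSG00000026712, the mannose receptor CD206) and Ms4a7 (ENSMUSG00000024672, a membrane protein of tissue macrophages), which the selection did not use. The level of Adgre1 was 269 CPM in PBS (interval 243 to 296) and 144 in cmExoaCD11b (110 to 184), that of Mrc1 was 319 (292 to 349) and 224 (181 to 273), and that of Ms4a7 was 542 (506 to 580) and 332 (279 to 391). In the neutrophil-like S100a8 S100a9 cells of the same libraries, Adgre1 was at 6.67 and 4.78 CPM, Mrc1 at 2.19 and 1.67, and Ms4a7 at 2.07 and 0.812. With each cell thinned to 1000 UMIs, Adgre1 was detected in 21.3% of C1q cells of PBS and 18% of cmExoaCD11b, against 1.07% and 0.502% of the S100a8 S100a9 cells, whose median depths were 9579 and 9794 UMIs before thinning. As a population the cells therefore carried these marker transcripts far above the S100a8 S100a9 cells. Those cells are a distant comparison, as all held C1q below the selection threshold (at most 0.0985% in PBS and 0.0937% in cmExoaCD11b). Over the macrophage identity list, without the C1q genes, the gap was smaller: 32636 and 16051 CPM against 9599 and 7995. Cells with Ccr2 and Vcan, described below, held 15573 and 11337 CPM of it, and droplets of at most 100 UMIs 10740 and 6479.

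Single cells were more mixed than the sums. None of the 3 markers was detected in 43 of 169 PBS cells (25.4%) and 19 of 50 cmExoaCD11b cells (38%). Where C1q made up at least 0.5% of UMIs, only 2 of 75 PBS cells and 1 of 23 cmExoaCD11b cells lacked all 3 markers, against 41 of 94 and 18 of 27 cells with C1q under 0.5%. The cells under 0.5% were also shallow, with median depths of 2721.5 and 2350 UMIs against 14835 and 9019 at or above it, and their C1q call rested on fewer than 3 UMIs in 27 PBS and 6 cmExoaCD11b cells. With each cell thinned to 1000 UMIs the gap was smaller: all 3 markers were undetected in 30.7% of PBS and 39.1% of cmExoaCD11b cells with C1q at 0.5% or more, against 69.1% and 85.2% of those below, and in 98.2% and 99.3% of S100a8 S100a9 cells. The macrophage label thus rests more on the cells with C1q at 0.5% or more, and the whole set is called by its rule, C1q cells. Results below are given for all of them, and for named genes past 2-fold, values in the cells with C1q at 0.5% or more are given where the ratio moved by more than 1.5 times or was no longer past 2-fold.

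**Figure D1:**
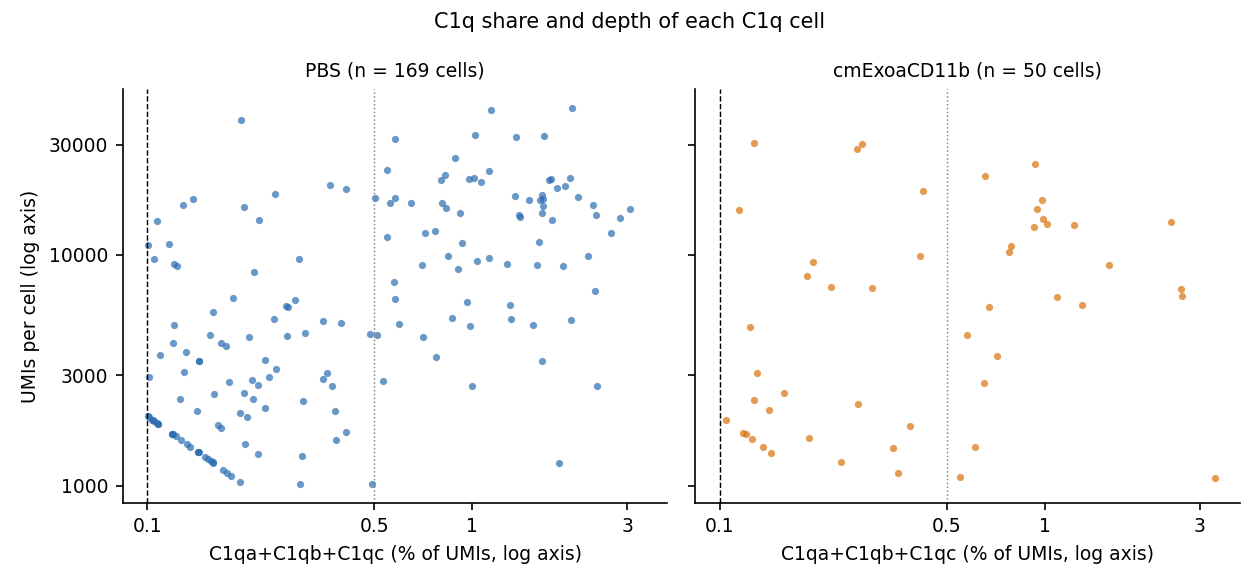
C1q (horizontal, percent of a cell's UMIs, log axis) and UMIs (vertical, log axis) of each selected C1q cell of the PBS (left) and cmExoaCD11b (right) libraries, each point a cell, with a dashed line at the threshold of 0.1% and a dotted line at 0.5%. The cells to the right of the dotted line, 75 in PBS and 23 in cmExoaCD11b, are mostly deeper (medians 14835 and 9019 UMIs) than those to its left (2721.5 and 2350).

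No gap separated the cells at the C1q threshold. Just inside the C1q threshold, from 0.1% to under 0.15%, 36 PBS cells had Apoe at 2632 CPM, Adgre1 at 166 and the neutrophil gene Csf3r at 407, and 231 cells from 0.05% to under 0.1% had 1195, 46.9 and 565. In cmExoaCD11b the corresponding C1q edges held 12 cells with Apoe at 1508, Adgre1 at 29.3 and Csf3r at 234 CPM, and 49 cells with 1266, 88.9 and 267.

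The C1q cells took a smaller share of the cmExoaCD11b library than of the PBS library. They made up 2.45% (2.10% to 2.84%) of filtered PBS barcodes and 0.702% (0.522% to 0.925%) of cmExoaCD11b barcodes, a ratio of 0.287 (0.205 to 0.396). S100a8 S100a9 cells took a larger share in cmExoaCD11b, 44.8% against 31.2% of barcodes, and cells with Ccr2 and Vcan at 0.1% or more and C1q under 0.1% made up 0.768% in PBS and 1.62% in cmExoaCD11b. A smaller share of barcodes and a lower yield of these cells at dissociation cannot be told apart. The filtered barcodes held 56544941 UMIs in PBS and 71233725 in cmExoaCD11b, and C1q cells had a median of 5261 and 6317.5 UMIs and 2094 and 2166 genes per cell. The 2 libraries shared 15 filtered barcodes by sequence, 0 of them among the C1q cells.

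The question was which genes of these cells differed between the treatments. Of 5286 genes with at least 50 UMIs, 215 (4.07%) were at least 2-fold higher in cmExoaCD11b and 183 (3.46%) at least 2-fold lower, around a median ratio of 1.06. Among the cells with C1q at 0.5% or more, 156 of the 215 and 111 of the 183 were also past 2-fold. Of 84 named genes past 2-fold, 20 were no longer past it there and 2 crossed a ratio of 1. With only 50 cells in cmExoaCD11b, single cells weighed heavily: 91 of the 215 higher genes drew more than 20% of their cmExoaCD11b UMIs from 1 cell, and 28 of the 183 lower genes more than 20% of their PBS UMIs.

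Type I interferon-stimulated genes were higher in cmExoaCD11b across nearly the whole list. Of 36 genes of the list with at least 50 UMIs, 30 were at least 2-fold higher and 0 lower, beside the 4.07% of all genes, and the median ratio over the 41 genes with at least 20 UMIs was 3.96. Their summed level was 4063 CPM in PBS and 11223 CPM in cmExoaCD11b. Within cells, the median share of UMIs from the list was 0.258% (quartiles 0.129% and 0.552%) in PBS and 0.809% (0.479% and 1.53%) in cmExoaCD11b, so the quartile ranges overlapped only between 0.479% and 0.552%. No cell supplied more than 9.87% of the list's UMIs in cmExoaCD11b. In cells with C1q at 0.5% or more the list stood at 3719 and 10829 CPM, and in cells below that at 4902 and 11666.

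**Figure D2:**
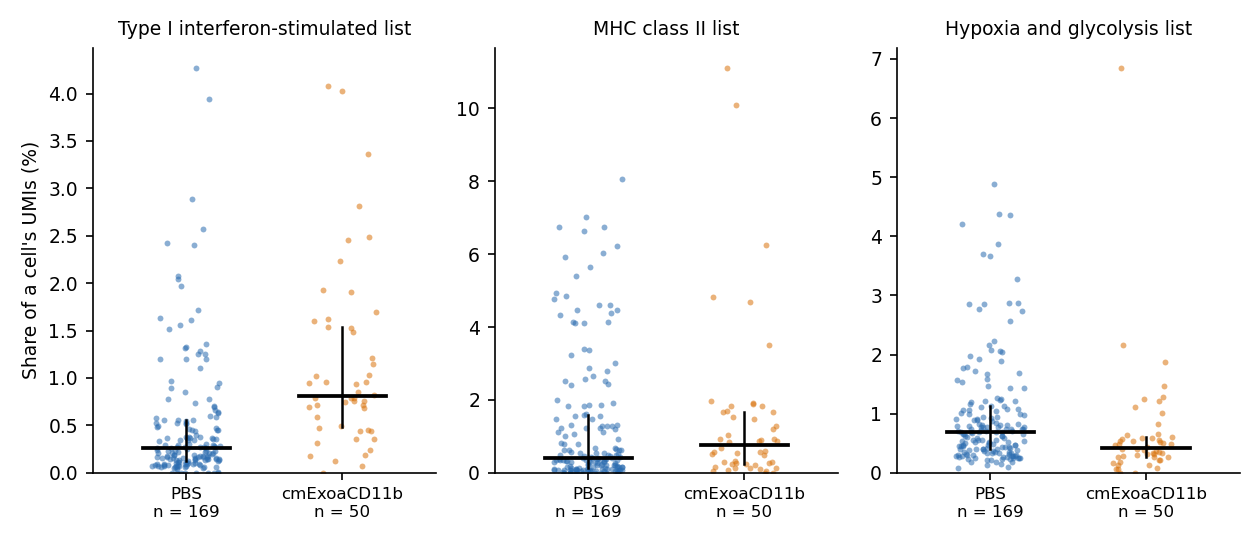
Share of each cell's UMIs (percent) from 3 gene lists in the C1q cells of PBS (blue) and cmExoaCD11b (orange), with each point a cell, the horizontal bar the median and the vertical bar the quartiles. The median of the interferon list is 0.258% in PBS and 0.809% in cmExoaCD11b, that of MHC class II 0.414% and 0.759%, and that of hypoxia and glycolysis 0.691% and 0.424%.

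Among the 36 genes with at least 50 UMIs, the largest ratios belonged to Ifi209, Ms4a4c, Ifi211 and Xaf1. Oas3, on 9 and 28 UMIs, and Ifi44, on 1 and 9 UMIs, had larger ratios below that minimum. Ifi209 and Ifi211 (members of the interferon-inducible p200 family that bind or sense nucleic acid) had ratios of 11.1 (7.44 to 16.8) and 8.28 (6.13 to 11.3), with levels of 21.9 and 242 CPM for Ifi209 and 41.2 and 341 CPM for Ifi211 in PBS and cmExoaCD11b. Ms4a4c, a membrane-spanning protein, was at 39.3 and 362 CPM, a ratio of 9.22 (6.81 to 12.6). With cells thinned to 1000 UMIs, Ms4a4c was detected in 1.78% of PBS and 26% of cmExoaCD11b cells (21.9% and 44% unthinned), against 0.139% and 0.910% of the thinned S100a8 S100a9 cells, and droplets of at most 100 UMIs, which hold free RNA, had Ms4a4c at 17.9 and 87.3 CPM. Xaf1, a pro-apoptotic interferon target, was at 15.5 and 120 CPM. The levels of all 4 had intervals that did not overlap between the libraries, and the cells with C1q at 0.5% or more gave ratios of 11.4 for Ifi209, 5.32 for Ms4a4c, 5.89 for Ifi211 and 7.95 for Xaf1. Ifi213, another p200 gene outside the list, was at 10.3 and 106 CPM.

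Transcription factors and sensors of the pathway were among them. Stat2, which with IRF9 is part of the interferon-activated complex, was at 20.6 and 120 CPM, a ratio of 5.82 (3.67 to 9.36). Irf7, which amplifies type I interferon production, was at 23.8 and 115 CPM, a ratio of 4.84 (3.09 to 7.63). Usp18, a negative regulator of the interferon receptor, was at 12.9 and 75.3 CPM. Zbp1, a sensor of Z-form nucleic acid, was at 38.6 and 188 CPM, and Slfn5 at 48.3 and 289, with a ratio of 10.1 in cells with C1q at 0.5% or more. The most abundant members had smaller ratios: Ifitm3, which blocks viral entry, stood at 772 and 1588 CPM, a ratio of 2.06 (1.87 to 2.26), the antiviral enzyme Rsad2 at 401 and 946, a ratio of 2.36 (2.08 to 2.68), and the ubiquitin-like Isg15 at 501 and 936, a ratio of 1.87 (1.65 to 2.11) that stayed under 2-fold.

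The promoters of several of these genes hold letters of an interferon-stimulated response element. TTTCNNTTTC or its reverse complement GAAANNGAAA was searched on both strands in RefSeq promoters (GRCm38.p6, 250 bases before to 50 after each start). The deposited files name no genome build. A match was present in 1131 of 32851 promoters (3.44%), in 223 of 5493 promoters of the genes tested here (4.06%), and in 19 of 30 promoters of the interferon genes past 2-fold (63.3%). Those 30 promoters belong to 24 genes found in the table, and 16 of the 24 had a match, while 6 of the 30 genes past 2-fold had no entry. The list was itself assembled from known interferon targets, so its share describes the list. Shown are the 250 bases before the start of an abundant gene (Rsad2), of a gene with one of the largest ratios (Ifi211) and of a gene with 2 matches (Ifit3), in lower case with the matched letters in capitals. They were chosen after their values were seen. Rsad2 lies at chr12:26456453-26456702 on the minus strand, Ifi211 at chr1:173913047-173913296 on the minus strand and Ifit3 at chr19:34583279-34583528 on the plus strand.
Rsad2: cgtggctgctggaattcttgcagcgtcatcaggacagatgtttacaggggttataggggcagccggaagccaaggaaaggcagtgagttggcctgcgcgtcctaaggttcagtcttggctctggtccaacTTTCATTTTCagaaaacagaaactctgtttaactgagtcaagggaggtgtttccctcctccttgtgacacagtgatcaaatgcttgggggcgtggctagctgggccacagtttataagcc
Ifi211: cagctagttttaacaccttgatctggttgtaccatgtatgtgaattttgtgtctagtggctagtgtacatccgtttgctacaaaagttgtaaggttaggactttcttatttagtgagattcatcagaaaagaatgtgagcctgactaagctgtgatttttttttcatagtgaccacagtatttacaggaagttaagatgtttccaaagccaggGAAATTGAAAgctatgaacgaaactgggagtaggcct
Ifit3: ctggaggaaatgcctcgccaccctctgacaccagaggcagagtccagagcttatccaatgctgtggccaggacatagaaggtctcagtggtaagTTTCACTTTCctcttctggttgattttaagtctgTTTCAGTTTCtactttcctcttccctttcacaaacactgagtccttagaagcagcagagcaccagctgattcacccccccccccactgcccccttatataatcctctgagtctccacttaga
The match begins 120 bases before the start in Rsad2 and 37 bases before it in Ifi211, and the matches in Ifit3 begin 156 and 122 bases before it. Ifit3, which binds viral RNA together with Ifit1, had 15.5 CPM in PBS against 96.5 CPM in cmExoaCD11b, a ratio of 6.24 (3.68 to 10.8). Ifi209, with the largest ratio among the genes of the interferon list with at least 50 UMIs, had no match in its window.

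The interferon list was also higher in other populations of cmExoaCD11b, with 5014 and 12180 CPM in PBS and cmExoaCD11b in Ccr2 Vcan cells and 2345 and 5263 in S100a8 S100a9 cells. These populations come from the same 2 libraries, so they are no further replicates. Among the C1q cells, the sensor of long double-stranded RNA Ifih1 (MDA5) was at 310 and 809 CPM, a ratio of 2.61, with 33.1% of its cmExoaCD11b UMIs in 1 cell. Ifit2, an RNA-binding antiviral protein, was at 249 and 525 CPM, a ratio of 2.10 (1.78 to 2.49). Thinned to 1000 UMIs, Ifit2 was detected in 10.7% of PBS and 24% of cmExoaCD11b cells (20.1% and 54% unthinned), against 1.07% and 4.33% of S100a8 S100a9 cells, with 75.4 and 176 CPM in the droplets of free RNA. Its relative Ifit1 was at 183 and 299 CPM, a ratio of 1.63 (1.31 to 2.02) that stayed under 2-fold. In cells with C1q at 0.5% or more the ratios were 4.41 for Ifih1, 2.98 for Ifit2, 3.15 for Rsad2 and 1.71 for Isg15, while Ifitm3, at 730 and 1315 CPM there, was under 2-fold.

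**Figure D3:**
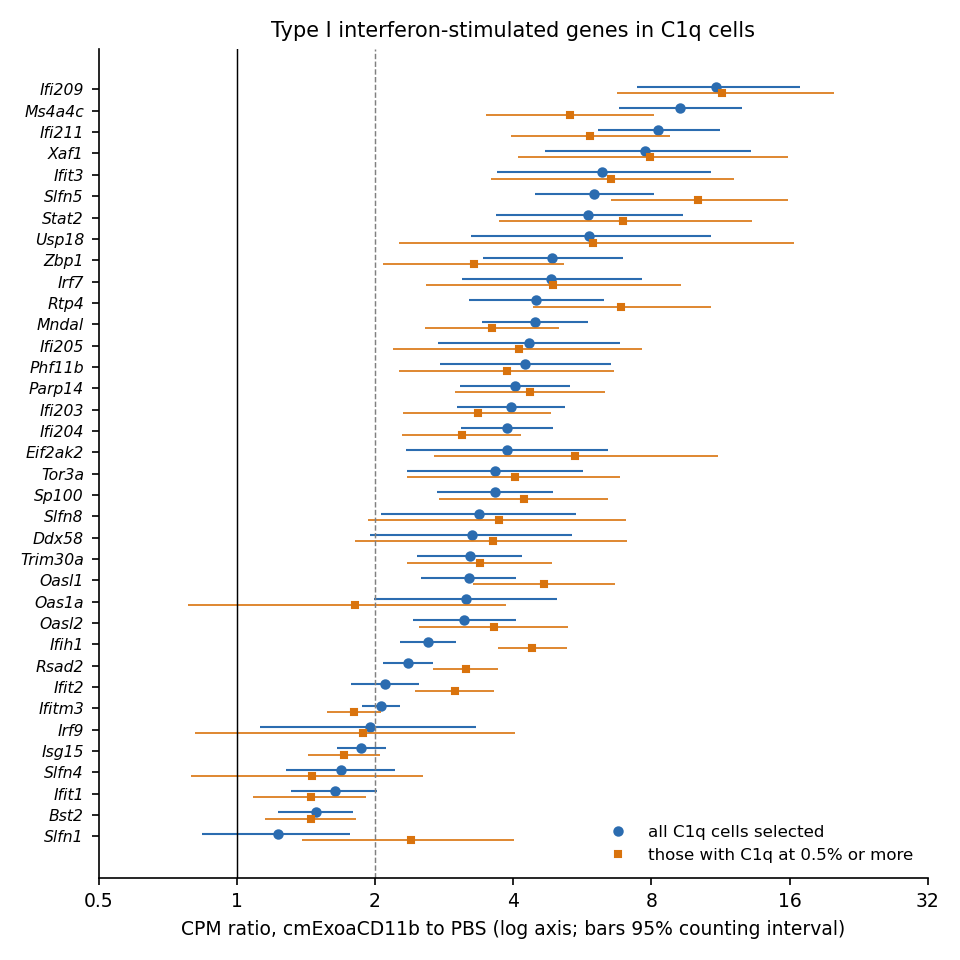
CPM ratio of cmExoaCD11b to PBS (log axis, bars 95% counting intervals, dashed line 2-fold) of the 36 type I interferon-stimulated genes with at least 50 UMIs in all selected C1q cells (blue circles), beside the ratio in those with C1q at 0.5% or more (orange squares). Of the 36 blue points, 30 lie past 2-fold, led by Ifi209 at 11.1, and the intervals of the subset are wider for each of the 36 genes.

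Genes linked to interferon gamma differed less evenly. Of 20 genes with at least 50 UMIs, 7 were at least 2-fold higher and 1 lower, beside 4.07% and 3.46% of all genes, with a median ratio of 1.52 over 25 genes and of 1.75 in cells with C1q at 0.5% or more. The GTPases Ifi47 and Igtp stood at 23.2 and 98.8 CPM and at 17.4 and 70.6 CPM, ratios of 4.26 (2.67 to 6.85) and 4.06. The guanylate-binding proteins Gbp2 and Gbp3, the GTPase Iigp1 and the membrane protein Ly6a had ratios of 2.30 to 2.53. In cells with C1q at 0.5% or more, Gbp2 at 1.74, Gbp3 at 1.67 and Ly6a at 1.87 were under 2-fold. Cxcl10, a T cell chemoattractant and the most abundant gene of the list, was at 1020 CPM in PBS and 1009 in cmExoaCD11b, and the interval of the ratio was 0.888 to 1.10. Nos2, the inducible nitric oxide synthase, was at 35.4 and 14.1 CPM on 55 and 6 UMIs, and its ratio was 0.741 in cells with C1q at 0.5% or more. The MHC class I list had a median ratio of 1.19, with 1 of 17 genes higher, a share near the 4.07% of all genes: the immunoproteasome subunit Psmb9 at 103 and 209 CPM, whose ratio was 1.67 in cells with C1q at 0.5% or more, while B2m was at 2603 and 2941.

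Lists for the pathways that the exosome cargo addresses had few genes with enough UMIs, and some were past 2-fold, beside 4.07% of all genes higher and 3.46% lower. In the STING pathway list 2 of 9 genes were at least 2-fold higher, Ifi204 (also on the interferon list) at 95.97 and 372 CPM and the nucleotide hydrolase Samhd1 at 174 and 456, with a median ratio of 1.16 over 14 genes and of 1.07 in cells with C1q at 0.5% or more. In the IL-12 list 2 of 6 were higher, the IL-12 signal transducer Stat4 (ratio 3.77, 32 and 33 UMIs) and the cytokine Il18 (2.36, 34 and 22 UMIs), and 1 lower, Ebi3 (0.281, 52 and 4 UMIs), with a median ratio of 0.934 over 8 genes and of 1.27 in cells with C1q at 0.5% or more. In those cells neither Il18 (1.69) nor Ebi3 (0.502) was past 2-fold, and with cells thinned to 1000 UMIs the ratio of Il18 was 0.483. Il12a had no UMI in either library, and Il12b had 30 UMIs in PBS, all in 1 cell, and none in cmExoaCD11b.

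Several monocyte genes were higher in cmExoaCD11b cells. In the monocyte list 7 of 18 genes were at least 2-fold higher and 1 lower, beside 4.07% and 3.46% of all genes, with a median ratio of 1.87 over 21 genes and a sum of 5557 and 8487 CPM. Plac8, abundant in classical monocytes, had 182 CPM in PBS and 1183 CPM in cmExoaCD11b, a ratio of 6.52 (5.62 to 7.57). Ly6c2, which encodes the Ly6C antigen of classical monocytes, was at 26.4 and 198 CPM, a ratio of 7.48 (5.09 to 11.2). Chil3 had a ratio of 3.92, Ifitm6 of 3.61, Itga4 of 3.12 and Hp of 2.30. Part of these sums came from single cells, since 1 cell gave 52.2% of the Chil3, 35.7% of the Ly6c2 and 21.5% of the Plac8 UMIs in cmExoaCD11b. Within cells with C1q at 0.5% or more, Plac8 was at 126 and 644 CPM and Ly6c2 at 14.5 and 44.4. Fn1, also on the list, was lower, at 623 and 285 CPM, with a ratio of 0.153 in cells with C1q at 0.5% or more, where Hp at 1.93 was not past 2-fold. The list's median ratio in those cells was 1.97. Its sum was 4743 and 5363 CPM there, against 7541 and 12001 CPM in cells with C1q under 0.5%. Other material held more of these transcripts: the list stood at 16695 and 21110 CPM in S100a8 S100a9 cells and at 10548 and 15804 in droplets of free RNA, with Plac8 at 726 and 1580 CPM in the droplets and Ly6c2 at 744 and 799 in S100a8 S100a9 cells. In the Ccr2 Vcan cells the list stood at 20289 and 20885 CPM, with Plac8 at 1842 and 3507 and Ly6c2 at 383 and 1126. The part of these other cells and droplets in the result was not tested.

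Some macrophage, lipid-handling and scavenger genes were lower. Apoe, the apolipoprotein that was the most abundant gene of both lists, had 20731 CPM in PBS against 6458 CPM in cmExoaCD11b, a ratio of 0.312 (0.300 to 0.324). In cells with C1q at 0.5% or more Apoe was at 27032 and 10487 CPM. The fractalkine receptor Cx3cr1 was at 189 and 91.8 CPM, and these were the 2 of 19 macrophage identity genes past 2-fold, beside 3.46% of all genes lower. The list's median ratio was 0.731, and 0.907 in cells with C1q at 0.5% or more, where Cx3cr1 at 0.667 was not past 2-fold. In the lipid-associated list 5 of 21 genes were at least 2-fold lower and 1 higher, with a median ratio of 0.653, and 0.668 in cells with C1q at 0.5% or more. Spp1, which encodes osteopontin, had 717 CPM in PBS against 151 in cmExoaCD11b, a ratio of 0.210 (0.161 to 0.270), and 1 cell gave 53.1% of the latter. Droplets of free RNA held more Spp1, at 2297 and 413 CPM. The ratio of Spp1 was 0.0869 in cells with C1q at 0.5% or more. The cholesterol exporter Abca1 was at 385 and 176 CPM, Gpnmb at 52.2 and 4.71 (81 and 2 UMIs, ratio 0.0902 with an interval of 0.0107 to 0.336) and Syngr1 had a ratio of 0.176, whereas Abcg1, a related exporter, was higher at 46.4 and 106 CPM. The ratio in cells with C1q at 0.5% or more was 0.622 for Abca1, no longer past 2-fold, 0.175 for Gpnmb and 0.288 for Syngr1. Of 17 scavenger and alternative activation genes 6 were lower and 2 higher: Folr2, Stab1, Mgl2, Selenop, Pf4 and Ccl8 had ratios of 0.188 to 0.464, and Chil3 and Il10 were the higher ones. One cell gave 94.1% of the Ccl8 UMIs and 53.3% of the Il10 UMIs in cmExoaCD11b, and 47.2% of the Ccl8 UMIs in PBS. Within cells with C1q at 0.5% or more, Stab1 (0.580), Selenop (0.584), Pf4 (0.557) and Folr2 were not past 2-fold, Mgl2 was at 0.302 and Il10 at 5.71. The list's median ratio was 0.572, and 0.848 in cells with C1q at 0.5% or more.

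Part of the matrix and hypoxia lists was lower as well. In the matrix and angiogenesis list 8 of 19 genes were at least 2-fold lower and 0 higher, beside 3.46% of all genes, with a median ratio of 0.609. These 8 include Spp1 and Fn1, given above. The elastase Mmp12 had 296 CPM in PBS against 18.8 in cmExoaCD11b, a ratio of 0.0637 (0.0273 to 0.127), and Pdpn, the CLEC-2 ligand podoplanin, was at 115 and 9.41, on 178 and 4 UMIs. The gelatinase Mmp9 was at 182 and 51.8 CPM, the collagenase Mmp13 at 53.5 and 2.35 (83 UMIs and 1 UMI, ratio interval 0.00110 to 0.252), Plau at 92.1 and 32.9, and Timp2 at 202 and 87.1. In the hypoxia and glycolysis list 4 of 24 genes were lower: the lipid droplet protein Hilpda at 631 and 205 CPM, the glucose transporter Slc2a1 at 226 and 79.996, the oxygen sensor Egln3 at 147 and 51.8, and the glycolytic enzyme Tpi1 at 493 and 214. Gapdh, the most abundant, was at 2307 and 1400 CPM, and the list's median ratio was 0.673. In cells with C1q at 0.5% or more the median ratio was 0.589 for the matrix list and 0.652 for the hypoxia and glycolysis list, with Mmp12 at 324 and 13.3 CPM. There Mmp9 had a ratio of 0.180, and Timp2 was not past 2-fold.

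Inflammatory genes differed in both directions. Of 24 genes, 4 were lower (Cxcl3, Il1a, Ccl3 and Ptgs2) beside 3.46% of all genes and 2 higher (Ccl7 and Il18) beside 4.07%. The list's median ratio was 0.875, and 1.03 in cells with C1q at 0.5% or more. The neutrophil chemoattractant Cxcl3 had one of the smallest ratios of all genes, with 609 CPM in PBS against 23.5 in cmExoaCD11b, a ratio of 0.0387 (0.0185 to 0.0714), and Il1a, which encodes interleukin-1 alpha, was at 267 and 28.2 CPM, a ratio of 0.106 (0.0541 to 0.187). Droplets of free RNA held Cxcl3 at 2025 and 664 CPM and Il1a at 299 and 62.6. Cxcl3 was also lower in the cells with C1q at 0.5% or more (277 and 8.89 CPM), and Il1a had a ratio of 0.206 there, while Ccl3 at 0.737 and Il18 at 1.69 were not past 2-fold. Cxcl2, the most abundant gene of the list, was at 7052 and 3553 CPM, Ccl3 at 1557 and 692, Ptgs2 at 372 and 184 and Il1b at 1545 and 998. The monocyte chemoattractant Ccl7 was higher, at 176 and 395 CPM, while Ccl4 was nearly level at 3045 and 3397.

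Several other genes with very small or large ratios drew a large part of their UMIs from 1 cell. Ccl17, a ligand of CCR4, was at 100 CPM in PBS and had 0 UMIs in cmExoaCD11b, with a ratio interval of 0 to 0.0874. However, 75% of the PBS UMIs came from 1 cell. The ecto-5′-nucleotidase Nt5e was at 41.2 CPM and 0 UMIs, at least 5.84-fold higher in PBS, with 29.7% of its PBS UMIs in 1 cell, but droplets of free RNA held Nt5e at nearly the same level, 42.5 CPM in PBS, and at 17.6 CPM in cmExoaCD11b. The granule genes Mpo and Ctsg had 96.9% and 88.9% of their PBS UMIs in 1 cell, and Csta2 had 44.1%. Likewise, of the 10 largest ratios above 1, those of Mzb1 (18.6), Jchain (12.5) and Hspb1 (6.90) drew 87.5%, 86.8% and 85.3% of their cmExoaCD11b UMIs from 1 cell, and the ratios of Mzb1 and Jchain were 3.67 and 2.45 in cells with C1q at 0.5% or more.

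The MHC class II list was at 20173 CPM in PBS and 18194 in cmExoaCD11b, with a median ratio of 0.896 over 10 genes and none of 9 past 2-fold, beside 4.07% of all genes higher and 3.46% lower. The invariant chain Cd74 was at 7219 and 6433 CPM, the alpha chain H2-Aa at 3233 and 2908, the beta chain H2-Eb1 at 2465 and 2482, and the peptide-loading subunit H2-DMb1 at 278 and 198. Cells differed widely: the median share of a cell's UMIs was 0.414% in PBS and 0.759% in cmExoaCD11b, with upper quartiles of 1.59% and 1.67%. The list stood at 24608 and 27124 CPM in cells with C1q at 0.5% or more and at 9361 and 8146 in those below, and 1 cell gave 19.9% of its UMIs in cmExoaCD11b.

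**Figure D4:**
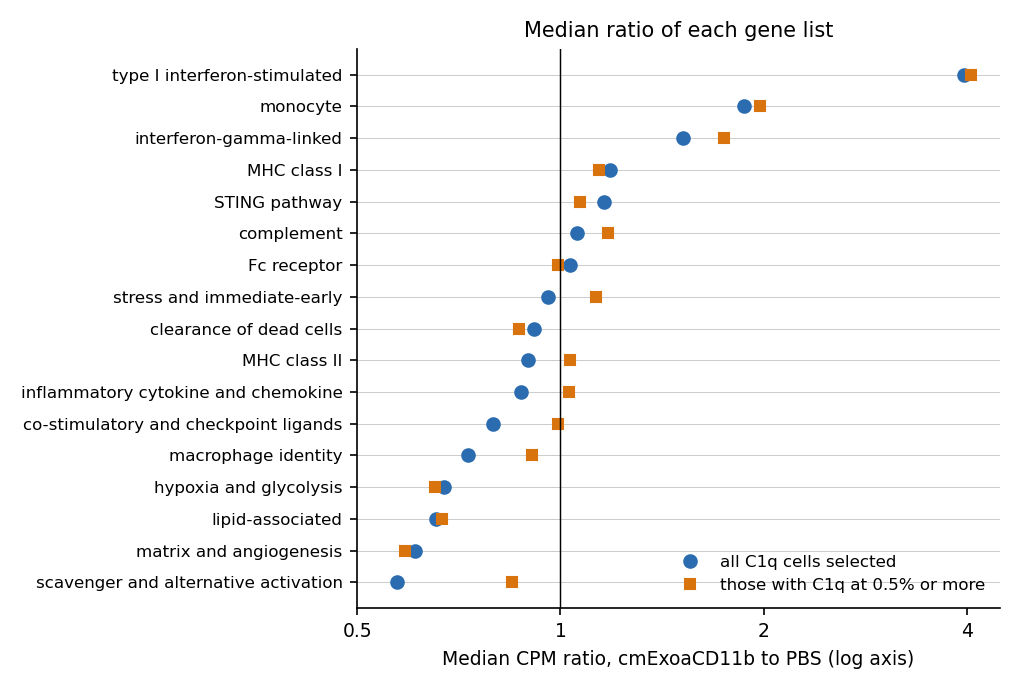
Median CPM ratio of cmExoaCD11b to PBS (log axis) of 17 gene lists in all selected C1q cells (blue circles) and in those with C1q at 0.5% or more (orange squares). The type I interferon list stands apart at 3.96 and 4.05, and the lowest medians over all the cells are those of the scavenger (0.572) and matrix (0.609) lists.

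Markers of other cells were measured in the same sums, and their part in the results was not tested. Neutrophil markers outside the selection summed to 2259 CPM in PBS and 2706 in cmExoaCD11b, against 101356 and 93535 in S100a8 S100a9 cells. Of 13 such genes none was at 0, and G0s2 was the most abundant in PBS and Retnlg in cmExoaCD11b. They were at 1601 and 2457 CPM in cells with C1q at 0.5% or more and at 3861 and 2985 in those below. Dendritic cell markers summed to 359 and 358 CPM, with Cd24a the most abundant. Of these 16 genes, 3 were at 0 UMIs in PBS (Xcr1, Cd209a and Siglech). In cmExoaCD11b 5 were at 0 (Xcr1, Cd209a, Kit, Ccl22 and Itgae). The others had UMIs, though 11 of the 16 held under 20 over both libraries. T and NK cell markers summed to 205 and 447 CPM, with Gzma the most abundant, and 1 cell held 46.8% of those UMIs in cmExoaCD11b. B and plasma cell markers summed to 296 and 5171 CPM, led by Igkc, with 93.5% of the UMIs of cmExoaCD11b in 1 cell, and red blood cell genes to 13.5 and 4317 CPM with 99.8% in 1 cell, led by Hbb-bs. Epithelial markers were at 12.9 and 18.8 CPM and stromal and endothelial markers at 43.2 and 32.9. Without the cells that gave over 1% of their UMIs to haemoglobin and immunoglobulin genes (1 in PBS and 2 in cmExoaCD11b), an alternative chosen after seeing the data, the interferon list's median ratio was 4.09.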

How the data were processed

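The authors deposited unfiltered matrices of UMI counts, written by Cell Ranger 7.1.0 per the file headers (the study's methods name an earlier version) for 32285 genes and 644248 barcodes for PBS and 723594 for cmExoaCD11b, with 67143628 and 81288480 UMIs. The genome build is not given in the sources used here. Barcodes were filtered as given in the report. The selection also required 1 gene, which is not reported here, to be under 0.1% of UMIs, and the comparison with cells at or above that level is left out. The members and the 31 gene lists were chosen with earlier results of these data known. UMIs of each population were summed per library and scaled to CPM. Levels have exact Poisson intervals, shares Clopper-Pearson intervals and ratios exact conditional intervals, all at 95%. No test was run, as each treatment is 1 pooled library. Ratios across lists use genes with at least 20 UMIs, without the genes of the selection. Doublets were kept, and Scrublet scores (scanpy 1.11.5, 30 principal components, 0.8% per 1000 cells) were used in an alternative. Named genes were the 6 markers, list genes that were among the 4 most abundant or past 2-fold, and the 10 largest ratios in each direction, leaving out mitochondrial, ribosomal, haemoglobin, immunoglobulin, Gm and Rik genes. Other genes were named after their values were seen. In all 15 alternatives were tried. The ratio and its interval were tested on simulated data.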

Additional observations from a re-analysis of the deposited data

How the results depend on the processing

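The share of C1q cells was lower in cmExoaCD11b under every alternative that redrew the cells, with ratios of 0.268 to 0.375, and the type I interferon list's median ratio was 2.32 (thinned to 1000 UMIs) to 4.09 over all alternatives. Counts of genes higher and lower in cmExoaCD11b moved with depth and weighting. They were 34 and 38 with cells thinned to 1000 UMIs, 519 and 408 with a minimum of 20 UMIs, 43 and 37 with 200 UMIs, 412 and 410 with each cell weighted equally, and 114 and 119 with the further threshold of the selection at its strictest, which left fewer cells. Among 84 named genes past 2-fold, the ratio crossed 1 in these cases. Thinned to 1000 UMIs, Csta2 was at 2.25, Cx3cr1 at 1.06, Folr2 at 1.69, Il18 at 0.483, Mki67 at 0.966 and Trim30a at 0.676. With at most 10% mitochondrial UMIs Ctsg was at 1.01 and Mpo at 2.35, with the strictest further threshold Ctsg was at 1.03, Il10 at 0.721 and Mpo at 4.12, with C1q at 0.5% Mki67 was at 0.870 and Top2a at 0.499, and with S100a8 plus S100a9 under 1% Retnlg was at 0.9996. The cause of these changes was not tested. No paired analysis was possible because each treatment is 1 library. With 50 cells in cmExoaCD11b, counting error and single cells limit most gene ratios, and nothing here measures the spread between mice.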

Other observations

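Of 6 further gene groups in the C1q cells, all but the cell cycle list had at most 1 member past 2-fold between the treatments. Of all genes, 4.07% were higher and 3.46% lower in cmExoaCD11b. The co-stimulatory and checkpoint list had a median ratio of 0.795 with 1 of 12 genes past 2-fold, Tnfsf9, a ligand of the T cell receptor 4-1BB, at 79.9 and 30.6 CPM, with a ratio of 0.708 in cells with C1q at 0.5% or more. The Fc receptor list had a median ratio of 1.03, the complement list, without the C1q genes of the selection, 1.06, and neither had a gene past 2-fold among 8 and 10. The stress and immediate-early list had a median ratio of 0.957 with 1 of 23 genes past 2-fold, Ier3, on 2569 and 268 UMIs. The cell cycle list had 3 of 12 genes higher (Mki67, Top2a and Ube2c, with 32.4% to 48.5% of cmExoaCD11b UMIs in 1 cell), and its median ratio was 1.47, against 0.691 in cells with C1q at 0.5% or more, where none of the 3 was at least 2-fold higher. Saa3, an acute phase protein, was at 122 CPM in PBS and 635 in cmExoaCD11b, a ratio of 5.19 (4.30 to 6.28), and at 112 and 298 CPM in cells with C1q at 0.5% or more. The list for the clearance of dead cells had a median ratio of 0.913 with 1 of 18 genes past 2-fold, Stab1, which is also a scavenger gene. Peritoneal macrophage markers, led by Saa3, summed to 213 and 725 CPM, against 901 and 3440 in Ccr2 Vcan cells. Of these 14 genes, 6 were at 0 UMIs in PBS and 7 in cmExoaCD11b. The latter include Gata6 and Timd4, which had 1 UMI of Timd4 in PBS. Acinar markers summed to 69.6 and 75.3 CPM, with 70.4% and 100% of UMIs in 1 cell, mast cell and basophil markers to 2.58 and 16.5 CPM, and the sex-linked genes to 271 and 266 CPM.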
